A study of Mus musculus with 6 samples.

Results

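HOXA genes encode homeodomain transcription factors, and MEIS and PBX proteins are TALE-class homeodomain partners that bind DNA together with them. Here 9 such mouse genes were followed, of the 53819 genes in the count table, chosen by symbol because they are tied to the fusion NUP98-HOXA9. They are Hoxa5, Hoxa6, Hoxa7, Hoxa9, Hoxa10 and Hoxa11 of the HOXA cluster, and the cofactor genes Meis1, Pbx2 and Pbx3. The choice used gene names and not the measured values, although it was made with earlier results of these data known.

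Recipient mice were transplanted with primary leukaemia cells that carry the fusions BCR-ABL and NUP98-HOXA9, a model of the blast crisis of chronic myeloid leukaemia. RNA was sequenced from the leukaemia cells sorted out of their spleens. Both groups therefore share the fusions. The labels give 3 libraries with the genotype SLC6A6 KO and 3 with SLC6A6 WT. Slc6a6 encodes a taurine transporter, and the comparison asks what its loss does to the leukaemia. The sources used here do not give the age or strain of the mice, the Slc6a6 allele or the sorting marker. Nor do they tell whether each library is a separate mouse or leukaemia, and the p-values measure only the spread between libraries, which may be technical.

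In blood, the middle and posterior HOXA genes are active in stem and progenitor cells and are silenced as the cells mature. NUP98-HOXA9 joins repeats of a nuclear pore protein to the DNA-binding part of HOXA9 and is known to keep HOXA genes and Meis1 active in myeloid leukaemia. MEIS proteins, PBX proteins and the posterior HOX proteins form complexes on DNA, and MEIS and PBX also bind each other.

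Values are given in CPM, read counts scaled to a common library size after TMM scaling, and each difference is KO over WT from edgeR's quasi-likelihood test across 15232 genes, with Benjamini-Hochberg adjustment over all of them and a threshold of 0.05. Library totals lay between 42829294 and 49537098 counts. Slc6a6 itself did not pass the test and its level does not check the genotype (log2 fold change −0.18 ± 0.07, SE, adjusted p = 0.196 in edgeR). Transcripts of 4 Y-linked genes, Kdm5d, Uty, Eif2s3y and Ddx3y, summed to 10274 to 11236 counts in each KO library and to 0 or 1 in each WT library. The genotype therefore cannot be told apart from the sex of the material, or from its donor or leukaemia, in any comparison below. KO2 stood apart from its group: by the chi-square per degree of freedom of the counts it was nearer to WT3 (70.3) and WT2 (96.8) than to KO1 (107) and KO3 (113). Without KO2 0 members were called, and the log2 fold change was 1.13 for Hoxa10 (edgeR adjusted p = 0.0756) and −0.36 for Hoxa9 (0.0728). Fewer cells of a type and less RNA per cell cannot be told apart in these sorted bulk samples.

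Of the 8 members with enough counts to test, Hoxa10 rose in the KO libraries and 0 members passed the test in the downward direction, against 1.64% of all tested genes higher and 1.92% lower. At an unadjusted p below 0.05 Hoxa7 and Hoxa9 were lower, and DESeq2 called 1 of them, Hoxa9, and limma-voom 0. Over all genes 11.6% were higher and 10.4% lower at an unadjusted p below 0.05, DESeq2 called 7.06% higher and 6.05% lower, and limma-voom called 1.34% and 1.62%. In either direction 1 of 8 members was called, against 3.56% of all tested genes. The 8 log2 fold changes had a median of 0.07, beside 0.0093 over all tested genes, with 5 above and 3 below 0. The groups did not overlap for 4 members, Hoxa6 and Hoxa10 with KO above WT and Hoxa7 and Hoxa9 with KO below WT, while 28.0% of all tested genes had no overlap (13.6% with KO above and 14.4% with KO below). Hoxa11 had 0 counts in every library, which allows up to 0.0228 CPM over the KO group and 0.0209 CPM over the WT group. That limit, 3 counts over a group, covers counting error only.

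The upstream sequences of Hoxa10 and Hoxa9 are shown because these neighbours of the cluster had the smallest p-values of the members and lay in opposite directions. The RefSeq promoter table for GRCm38.p6 held 8 of the 9 members, and the 250 bases before each start are printed here, 5′ to 3′ on the minus strand of chromosome 6. Hoxa10 has 2 starts in that table, 5915 bases apart, and the gene counts do not separate transcripts from either. The Hoxa9 window is chr6:52227371-52227620, and the Hoxa10 windows are chr6:52234940-52235189 and chr6:52240855-52241104. Capitals mark the core TTTAT, read on both strands (ATAAA on the other), which posterior HOX proteins are known to bind.
Hoxa9: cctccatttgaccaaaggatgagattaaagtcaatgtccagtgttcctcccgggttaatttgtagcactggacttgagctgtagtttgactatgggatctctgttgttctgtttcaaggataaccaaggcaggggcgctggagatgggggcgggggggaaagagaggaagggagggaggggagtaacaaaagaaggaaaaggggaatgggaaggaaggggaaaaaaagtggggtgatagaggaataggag
Hoxa10, downstream start: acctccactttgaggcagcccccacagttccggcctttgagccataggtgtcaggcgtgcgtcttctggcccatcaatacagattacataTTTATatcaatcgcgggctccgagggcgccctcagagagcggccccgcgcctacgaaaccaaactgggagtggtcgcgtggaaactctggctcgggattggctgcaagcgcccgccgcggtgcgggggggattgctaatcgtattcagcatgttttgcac
Hoxa10, upstream start: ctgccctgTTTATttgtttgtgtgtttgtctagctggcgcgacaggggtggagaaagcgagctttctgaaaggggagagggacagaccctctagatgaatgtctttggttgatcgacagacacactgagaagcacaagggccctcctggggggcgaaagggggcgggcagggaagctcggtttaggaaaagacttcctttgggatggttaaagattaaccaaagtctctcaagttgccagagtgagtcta

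Each Hoxa10 window held 1 such core and the Hoxa9 window held 0. The core occurred in 37.3% of the 32851 upstream windows of the table, so its presence is common. Among the 9 windows of the members, 3 held TTTAT (the Hoxa7 window and both Hoxa10 windows) and 2 held TTTAC (Hoxa7 and Meis1), which 28.3% of all windows held. The longer letters TGATTTAT and TGATTTAC, which join a PBX half-site to these cores and so overlap them, were in 0 of the 9 windows and in 0.837% and 0.496% of all windows. The MEIS letters TGACAG were in 0 of the 9 and in 15.9% of all. These matches describe letters in a window and not bound sites.

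Hoxa10, a posterior HOXA factor of early progenitors, was measured at 34.4 (KO1), 35.9 (KO2) and 39.7 CPM (KO3) in the KO libraries and at 11.2 (WT1), 19.0 (WT2) and 20.1 CPM (WT3) in the WT libraries. All KO libraries lay above all WT libraries, the KO values were close together, and WT1 stood below the other WT libraries. The fitted ratio was 2.19-fold (log2 fold change 1.13 ± 0.23, SE, n = 3 against 3, edgeR adjusted p = 0.0478). The call was close to the threshold. It was kept without WT1 (log2 fold change 0.89, adjusted p = 0.0437 in edgeR) and lost without KO1, KO2, KO3, WT2 or WT3, where the log2 fold change lay between 1.06 and 1.26 and the adjusted p between 0.0756 and 0.139. With the mean of the erythroid markers as a covariate the log2 fold change was 0.88 and the edgeR adjusted p 0.135.

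Hoxa9, the gene whose DNA-binding part is in the fusion, was measured at 101, 97.2 and 108 CPM in KO1 to KO3 and at 140, 132 and 129 CPM in WT1 to WT3. Every KO value lay below every WT value, by 23.5% in the fit. The log2 fold change of −0.39 ± 0.08 (SE, n = 3 against 3) missed the threshold, with an edgeR adjusted p of 0.0502. Its 95% interval ran from −0.58 to −0.20. Reads of the introduced NUP98-HOXA9 and of the endogenous Hoxa9 cannot be told apart in counts per gene, and the sources used here do not give whether the fusion's HOXA9 part is mouse or human. With upper quartile scaling the adjusted p was 0.0402, with library size alone 0.0431, with genes kept at 1 CPM or more in 3 libraries 0.0396, and with DESeq2's Wald test 0.00129.

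Nup98, the nuclear pore gene that supplies the other part of the fusion, lay in the same direction as Hoxa9. Reads of the fusion and of the endogenous Nup98 cannot be told apart in counts per gene either. It stood at 167, 175 and 216 CPM in KO1 to KO3 and at 327, 245 and 245 CPM in WT1 to WT3, again with no overlap. Its log2 fold change was −0.55 ± 0.15 (SE) with an edgeR adjusted p of 0.0961 and 0.0120 in DESeq2.

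Hoxa7, a neighbour of Hoxa9 that is often active with it in leukaemia, stood at 40.4, 46.7 and 41.2 CPM in KO and at 48.5, 54.0 and 53.9 CPM in WT. The groups did not overlap, with a log2 fold change of −0.29 ± 0.11 (SE) and an edgeR adjusted p of 0.175. Hoxa6 was the lowest of the detected members, at 3.01, 2.72 and 3.66 CPM in KO and 2.34, 2.13 and 2.25 CPM in WT, which rests on 101 to 151 counts a library. Its KO values lay above its WT values (0.48 ± 0.28, SE, edgeR adjusted p = 0.373). Hoxa5 stood at 12.7, 12.7 and 17.6 CPM in KO and at 14.7, 12.8 and 11.9 CPM in WT, with overlapping groups, and KO3 alone stood above all WT libraries. The log2 fold change of Hoxa5 was 0.13 ± 0.20 (SE, 95% interval −0.34 to 0.59) and turned to −0.06 without KO3. In the GENCODE M21 annotation the antisense RNA gene Hoxaas3 spans Hoxa5 and Hoxa6, and these reads carry no strand. The sources used here do not give how reads in overlapping genes were counted. The counts of Hoxa5 and Hoxa6 may therefore be too high or too low.

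**Figure D1:**
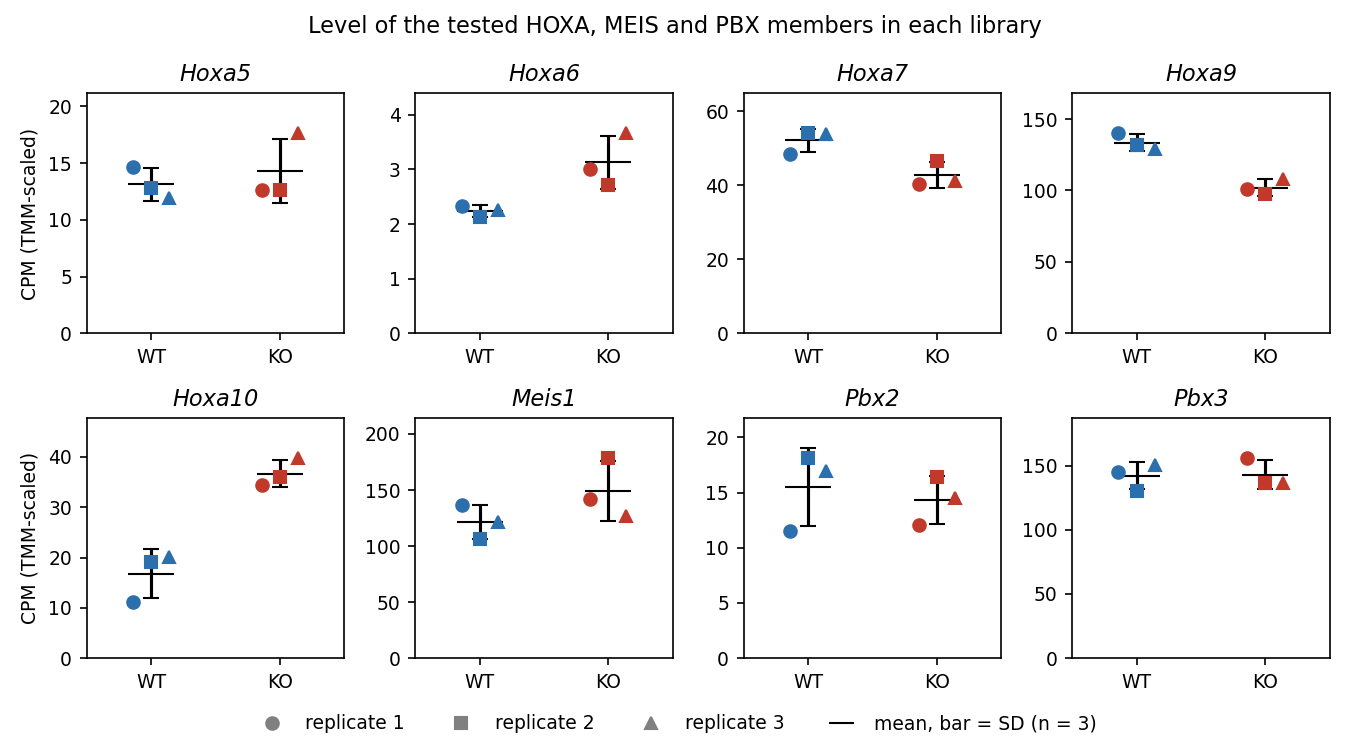
Level of each tested member in CPM (y axis, from 0) in the 3 WT and 3 KO libraries, with symbols for the replicate numbers, a line for the mean and a bar for the SD. Hoxa10 lies at 34.4 to 39.7 CPM in KO and 11.2 to 20.1 CPM in WT, and Hoxa9 at 97.2 to 108 CPM and 129 to 140 CPM.

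The make-up of the HOXA members within each library does not depend on the scaling between libraries. Because the shares sum to the whole, a larger share of 1 gene lowers the others, and neither the shares nor a ratio of 2 members tell which gene changed. Of the counts of the 6 HOXA members, Hoxa10 made up 18.0%, 18.4% and 18.9% in the KO libraries and 5.18%, 8.67% and 9.26% in the WT libraries. Hoxa9 made up 49.8% to 52.7% in KO and 59.4% to 64.6% in WT. For each Hoxa9 count there were 0.359 ± 0.0155 Hoxa10 counts in KO (SD, n = 3) and 0.127 ± 0.0408 in WT. The share of Hoxa7 overlapped between the groups, with 19.6% to 23.9% in KO and 22.4% to 24.8% in WT. Summed over the HOXA members, the level was 191 to 210 CPM in KO and 217 to 220 CPM in WT. No test was run on shares or sums of the members.

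**Figure D2:**
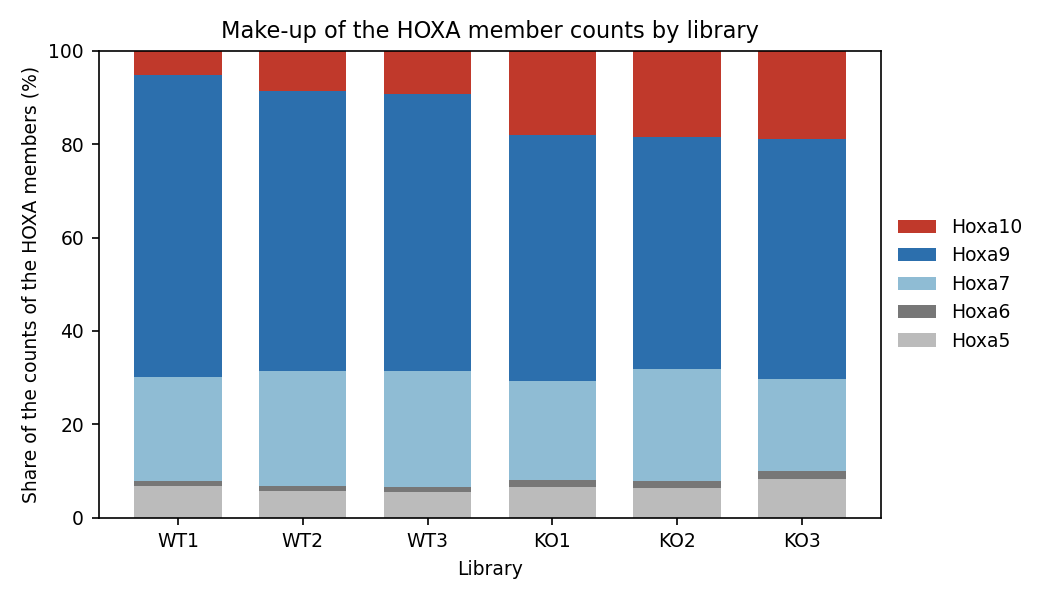
Share (%, y axis) of Hoxa5, Hoxa6, Hoxa7, Hoxa9 and Hoxa10 in the summed counts of the HOXA members in each library (x axis), with Hoxa11 at 0. Hoxa10 takes 18.0% to 18.9% in the KO libraries and 5.18% to 9.26% in the WT libraries.

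Meis1, the TALE partner that accelerates HOXA9-driven leukaemia in mice, was abundant in every library. It stood at 142, 178 and 127 CPM in KO1 to KO3 and at 137, 107 and 122 CPM in WT1 to WT3. KO2 was the highest library and the groups overlapped, since KO3 lay below WT1. The log2 fold change was 0.29 ± 0.15 (SE, 95% interval −0.06 to 0.65, edgeR adjusted p = 0.305). Without KO2 it was 0.14, and with the erythroid covariate it was 0.58, past the threshold at an edgeR adjusted p of 0.0402.

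Pbx3, the PBX family member most tied to HOXA9 in leukaemia, was measured at 156, 137 and 136 CPM in KO and 145, 130 and 151 CPM in WT. The groups overlapped, and the log2 fold change was 0.0069 ± 0.09 (SE) with a 95% interval from −0.21 to 0.23, and its sign turned with upper quartile scaling and with library size alone. Pbx2, a broadly expressed PBX gene, was measured at 12.1, 16.4 and 14.5 CPM in KO and 11.5, 18.1 and 16.9 CPM in WT, and KO1 and WT1 were the lowest libraries of their groups. Its log2 fold change was −0.11 ± 0.22 (SE, 95% interval −0.64 to 0.41, edgeR adjusted p = 0.818), and 0.0089 without WT2.

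Markers of other cells differed between the groups beside these members. Summed erythroid markers lay between 10750 and 34823 CPM in KO and between 5084 and 15704 CPM in WT. Of 19 tested erythroid markers 18 had a positive log2 fold change and 0 passed the test in edgeR, with 9 higher at an unadjusted p below 0.05, 1 in DESeq2 and 0 in limma-voom. Of the T and NK cell markers 6 of 18 tested were higher, with sums of 769 to 1060 CPM in KO and 710 to 870 CPM in WT, and Cd4 and Ncr1 were at 0 in WT. The median log2 fold change of the 18 was 4.04. KO lay above WT without overlap in 13 of them and below in 0, against 13.6% and 14.4% of all tested genes. DESeq2 called 12 higher and 0 lower, against 7.06% and 6.05% of all tested genes. B and plasma cell markers were higher for 3 of 9 (64.1 to 168 CPM against 5.74 to 43.3 CPM, with Pax5 at 0 in WT). The same held for 3 of 20 macrophage and monocyte markers (163 to 275 CPM against 70.1 to 134 CPM) and for 3 of 10 dendritic cell and MHC class II markers (128 to 148 CPM against 52.9 to 63.6 CPM, Siglech at 0 in WT). Median log2 fold changes were 2.58 for the B and plasma cell markers, 2.21 for macrophages and monocytes and 2.39 for dendritic cells and MHC class II. In that order, KO lay above WT without overlap in 7, 12 and 8 markers and below in 0, 2 and 1. DESeq2 called 4, 12 and 7 of them higher and 0, 2 and 1 lower. Of the neutrophil markers 1 of 15 was lower (19.8 to 263 CPM against 118 to 813 CPM). Of the megakaryocyte markers 1 of 16 was higher and 1 lower (909 to 1322 CPM against 1362 to 2575 CPM). Of the mast cell, basophil and eosinophil markers 1 of 13 was lower (691 to 897 CPM against 699 to 937 CPM). Median log2 fold changes of these lists were −1.28, −0.16 and −0.01 in turn. KO lay below WT without overlap in 5, 5 and 3 of their markers and above in 1, 4 and 0. DESeq2 called 3, 4 and 3 of them lower and 0, 4 and 0 higher. Of 4 tested stromal and endothelial markers 0 passed in edgeR, with 1 higher and 1 lower at an unadjusted p below 0.05 and in DESeq2 and 0 in limma-voom (148 to 199 CPM against 121 to 254 CPM), and Cdh5, Col3a1, Dcn, Pdgfra and Des were at 0 in all libraries. All 14 markers of immature myeloid cells had counts in both groups, with sums of 945 to 1182 CPM in KO and 891 to 1201 CPM in WT. At these library totals the presence of counts does not check the identity of the cells. In edgeR 1 of the 14, Kit, was higher and 0 lower, with 2 higher and 3 lower at an unadjusted p below 0.05. DESeq2 called 1 higher and 2 lower and limma-voom 1 and 0. Some lists share genes, so their counts are not separate observations. Kit, Cd34 and Myb are also among the HOXA9 and MEIS1 targets below, as is Flt3 of the dendritic cell list. The part of other cells in the differences given here was not tested beyond a fit with an erythroid covariate.

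Levels of different genes were compared per kilobase of the longest coding transcript in GENCODE M21. On this scale Pbx3 was the highest member in WT with 52.0 ± 3.84 CPM per kilobase (SD, n = 3), followed by Hoxa9 with 41.4 ± 1.77, Hoxa7 with 25.9 ± 1.56 and Meis1 with 16.1 ± 1.98. Hoxa5 with 6.99 ± 0.763 CPM per kilobase lay above Pbx2 with 5.06 ± 1.15 in each WT library, and Hoxa10 with 6.54 ± 1.89 overlapped both, while Hoxa6 with 2.56 ± 0.121 came last. In KO the order of the first 4 was the same, but Hoxa7 (21.3 ± 1.71 CPM per kilobase) and Meis1 (19.8 ± 3.50) overlapped. There Hoxa10, at 14.3 ± 1.07 CPM per kilobase, stood above Hoxa5 at 7.62 ± 1.52, and Pbx2 (4.67 ± 0.711) and Hoxa6 (3.58 ± 0.549) overlapped. The order depends on the transcript taken: per kilobase of the shortest coding transcript Hoxa9 came first in WT with 157, Hoxa7 next with 81.1 and Pbx3 after them with 54.9.

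The other genes and RNAs of the HOXA cluster, with its flanking gene Skap2, did not pass the test. Of 14 listed, 13 had a row, 8 were tested and 0 were called in either direction, with a median log2 fold change of −0.01. DESeq2 and limma-voom called 0 of them, and 1 was lower at an unadjusted p below 0.05. The smallest p among them was that of Hoxa4 (unadjusted p = 0.0285), chosen after its values were seen, with 1.10, 0.457 and 1.07 CPM in KO and 1.88, 2.40 and 1.86 CPM in WT (−1.22 ± 0.45, SE, edgeR adjusted p = 0.171). Hoxa2 averaged 4.21 ± 0.589 CPM in KO and 3.51 ± 0.313 in WT, Hoxa3 at 4.09 ± 1.22 and 3.25 ± 0.737, and Skap2, an adaptor protein gene beside the cluster, at 187 ± 12.9 and 170 ± 39.0 (SD, n = 3 each). The posterior gene Hoxa13 and the cluster RNAs Hottip, Hoxa11os and Halr1 had 0 counts in all libraries, like Hoxa11.

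Genes of the other HOX clusters lay mostly below WT in the KO libraries. Of 28 genes of the HOXB, HOXC and HOXD clusters, 15 were tested, 2 fell and 0 rose, with a median log2 fold change of −1.51, beside 0.0093 over all tested genes and 0.07 over the members. The median of −1.51 is the value of Hoxc10, a gene at 0.301 CPM in KO and 0.860 CPM in WT, with 9 to 57 counts a library. Hoxb2, Hoxb3 and Hoxc9 also averaged below 1 CPM in both groups. At an unadjusted p below 0.05, 10 of the 15 were lower and 1 higher, against 10.4% and 11.6% of all tested genes. DESeq2 called 7 lower and 1 higher and limma-voom 3 and 0. KO lay below WT without overlap in 10 of the 15 and above in 1, against 14.4% and 13.6% of all tested genes. Whether the clusters differ from the HOXA members was not tested. Hoxb6 fell, from 13.2, 11.5 and 12.2 CPM in WT to 4.43, 4.46 and 3.10 CPM in KO (log2 fold change −1.62 ± 0.23, SE, edgeR adjusted p = 0.0205). Hoxb8, which can hold myeloid progenitors immature, fell from 3.58, 7.66 and 5.30 CPM in WT to 1.33, 1.44 and 1.04 CPM in KO (−2.12 ± 0.37, SE, edgeR adjusted p = 0.0336). Hoxb6 kept its call without KO2 and Hoxb8 without WT1, and both lost it in each of the other 5 fits without 1 library, at adjusted p-values of at most 0.0986 and 0.124. With the erythroid covariate both calls were lost as well (edgeR adjusted p = 0.0658 for Hoxb6 and 0.0621 for Hoxb8), and Hoxb8 also missed the threshold in limma-voom (adjusted p = 0.0520).

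Hoxb7 (2.66 ± 0.674 CPM in KO, 9.35 ± 4.20 in WT), Hoxb9 (2.08 ± 1.21 against 7.79 ± 0.893) and Hoxc8 (5.54 ± 4.22 against 26.4 ± 4.91) lay below WT with edgeR adjusted p-values of 0.0586, 0.0611 and 0.0615, and were picked after seeing their values. In edgeR Hoxb7 passed with no filter on low counts (adjusted p = 0.0475) and with at least 1 CPM in 3 libraries (0.0482). Without KO1 Hoxb9 and Hoxc8 passed in edgeR, at adjusted p-values of 0.0395 and 0.0181. Both also passed in limma-voom (0.0393 and 0.0338), where Hoxb7 did not (0.0826). DESeq2 called Hoxb7, Hoxb9 and Hoxc8 lower, at adjusted p-values of 3.17e-04, 4.12e-04 and 4.39e-05. Hoxb5, next to Hoxb6 in its cluster and also chosen after its values were seen, lay the other way. It stood at 13.6, 13.8 and 13.8 CPM in KO and 7.34, 9.26 and 9.48 CPM in WT (0.66 ± 0.18, SE, edgeR adjusted p = 0.0928, DESeq2 0.00629). Hoxc5 had the highest CPM of these clusters, with 33.0 ± 10.9 in KO against 53.9 ± 4.27 in WT (edgeR adjusted p = 0.159, DESeq2 0.0465).

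**Figure D3:**
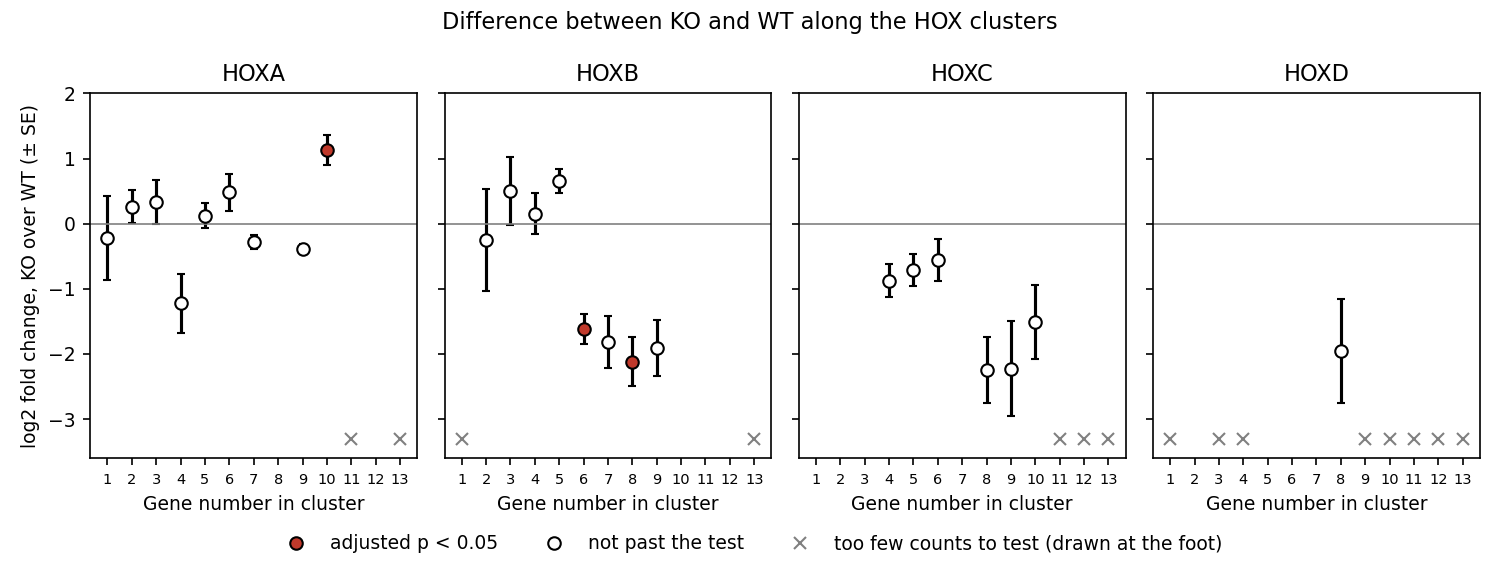
Log2 fold change, KO over WT, with its SE (y axis) for each HOX gene by its number in the HOXA, HOXB, HOXC and HOXD clusters (x axis), red where the edgeR adjusted p is below 0.05 and grey crosses where counts were too few to test. Hoxa10 at 1.13 is the called rise, and Hoxb6 at −1.62 and Hoxb8 at −2.12 are the called falls.

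Among the other TALE genes and PBX partners 7 of 9 were tested and 0 were called by edgeR, DESeq2 or limma-voom, with 2 higher at an unadjusted p below 0.05 and a median log2 fold change of 0.20. Pbx4, chosen after its values were seen, averaged 15.9 ± 1.17 CPM in KO and 12.3 ± 0.730 in WT without overlap (edgeR adjusted p = 0.218). Pknox1, a relative of MEIS that also pairs with PBX, was at 60.0 ± 1.30 and 59.2 ± 6.07 CPM, and Pbxip1, a PBX-binding protein, at 42.3 ± 2.52 and 43.5 ± 2.23 CPM.

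Genes that act on HOXA chromatin were nearly all uncalled. Of 18 tested genes of the trithorax, menin and DOT1L machinery, which keeps HOXA genes active, Psip1 rose and 0 fell, with a median log2 fold change of 0.02. At an unadjusted p below 0.05, 3 were higher and 1 lower, and DESeq2 called 3 and 0 and limma-voom 1 and 0. Psip1 encodes LEDGF, which ties menin and KMT2A to chromatin, and stood at 251, 241 and 243 CPM in KO and 174, 191 and 186 CPM in WT (0.42 ± 0.07, SE, edgeR adjusted p = 0.0306). It missed the threshold without each of KO1, KO2, KO3, WT1, WT2 and WT3 in turn, at adjusted p-values between 0.0551 and 0.149, and with the erythroid covariate (0.36, edgeR adjusted p = 0.0836). All 18 genes of the Polycomb machinery and CTCF, which silence or insulate HOX genes, were tested and edgeR called 0, with a median of 0.06, 1 higher and 1 lower at an unadjusted p below 0.05, 1 higher in DESeq2 and 0 in limma-voom. Ezh2, the Polycomb methyltransferase, averaged 174 ± 11.3 CPM in KO and 153 ± 15.4 in WT, Suz12 at 177 ± 21.6 and 158 ± 25.2, and the deubiquitinase gene Bap1 at 170 ± 3.75 and 171 ± 11.2. The Polycomb ligase gene Rnf2, named after its values were seen, lay at 37.8 ± 5.40 against 23.5 ± 2.37 CPM with an edgeR adjusted p of 0.0549, and of 0.0402 with the erythroid covariate. Of 8 partners of NUP98-HOXA9, Nup98 among them, edgeR called 0 (median 0.04), with 1 higher and 1 lower at an unadjusted p below 0.05, and DESeq2 called Nup98 lower and limma-voom called 0. Xpo1, the nuclear export receptor, was at 364 ± 21.4 and 357 ± 8.53 CPM, and Rae1, a binding partner of NUP98, at 205 ± 7.46 and 217 ± 15.3 CPM.

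Of 20 genes reported as targets of HOXA9 and MEIS1 in leukaemia, Kit and Trib2 rose, 0 fell and 18 were not called, with a median log2 fold change of 0.21. At an unadjusted p below 0.05, 8 were higher and 5 lower, against 11.6% and 10.4% of all tested genes. DESeq2 called 6 higher and 5 lower and limma-voom 1 and 0. Kit, the stem cell factor receptor, stood at 75.8, 74.8 and 44.5 CPM in KO and 25.6, 9.90 and 18.1 CPM in WT (1.86 ± 0.37, SE, edgeR adjusted p = 0.0450). Trib2, a pseudokinase that promotes loss of C/EBPα in leukaemia, stood at 16.1, 18.6 and 44.9 CPM in KO and 5.27, 3.01 and 4.09 CPM in WT (2.68 ± 0.45, SE, edgeR adjusted p = 0.0312). KO3 held by far the most Trib2, and the KO and WT libraries did not overlap for either gene. Kit missed the threshold without each of the 6 libraries in turn (adjusted p 0.0520 to 0.156), and Trib2 kept its call without KO2 and missed it without the other 5 (up to 0.127). Trib2 also lost its call with the erythroid covariate (edgeR adjusted p = 0.110) and in limma-voom (0.0568). Kit kept its call with that covariate (edgeR adjusted p = 0.0338) and lost it with library size alone (0.0513) and with no filter on low counts (0.0584). KO lay above WT without overlap in 7 of the 20 targets and below in 5, against 13.6% and 14.4% of all tested genes. Among the 5 targets below WT, chosen after their values were seen, were Cd34 at 1.61 ± 0.772 against 8.36 ± 7.43 CPM, Flt3 at 1.75 ± 0.964 against 5.42 ± 1.48 CPM and Bcl2 at 77.3 ± 9.34 against 154 ± 59.8 CPM, at edgeR adjusted p-values of 0.114, 0.126 and 0.0841. The log2 fold change of Cd34 went from −2.38 to −1.37 without WT1 and to −0.84 with the erythroid covariate, and that of Bcl2 from −0.99 to −0.65 and −0.46.

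Of 13 transcription factors that share sites with HOXA9, Cebpb fell and 0 rose (median log2 fold change 0.09). At an unadjusted p below 0.05, 2 were higher and 2 lower, and DESeq2 and limma-voom each called 0 and 1. Cebpb, which encodes a C/EBP factor of myeloid maturation, stood at 19.7, 11.8 and 18.1 CPM in KO and 77.3, 67.6 and 54.5 CPM in WT (−2.01 ± 0.23, SE, edgeR adjusted p = 0.0125). It stayed past the threshold without any 1 library, with adjusted p-values of at most 0.0486. With the replicate number as a block it missed the threshold (edgeR adjusted p = 0.0611).

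**Figure D4:**
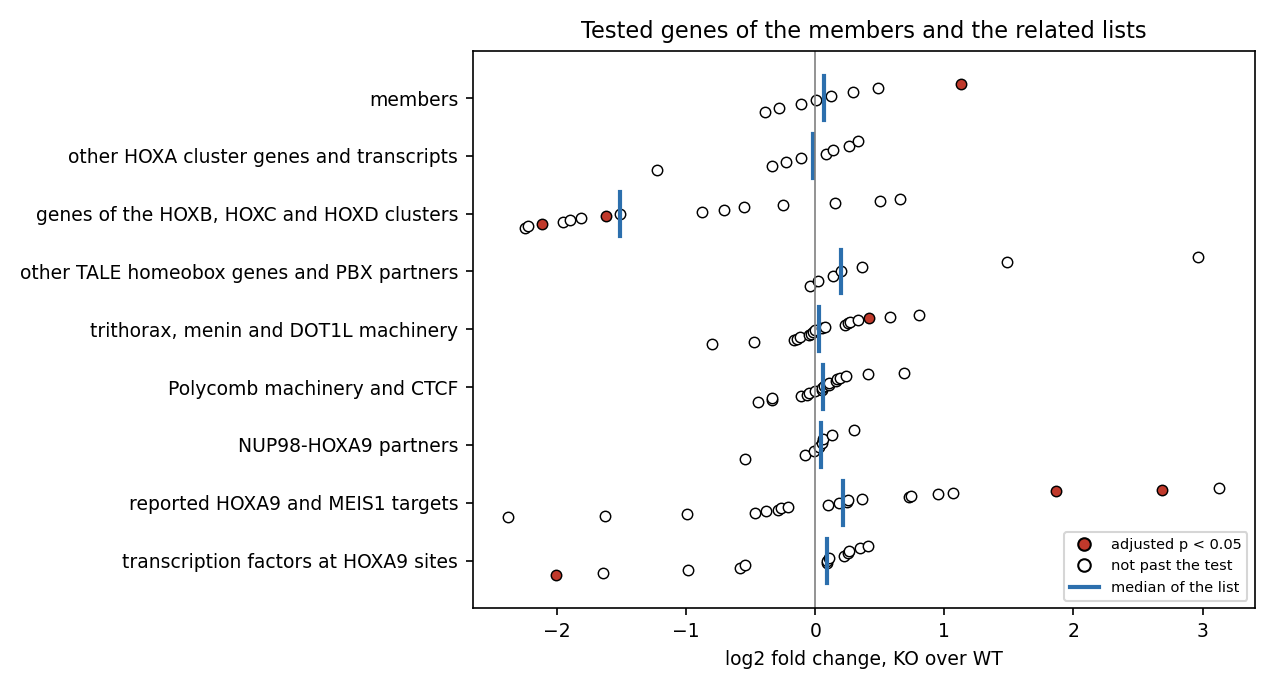
Log2 fold change, KO over WT (x axis), of each tested gene of the members and of the 8 related lists (y axis), red where the edgeR adjusted p is below 0.05, with a blue line at each median. The HOXB, HOXC and HOXD genes have a median of −1.51 and the members a median of 0.07. The first is the value of Hoxc10, at 0.301 CPM in KO and 0.860 CPM in WT.

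Among 9843 other genes with a mean of at least 5 CPM, those closest in pattern were found by the root mean square difference of centred log2 CPM over the 6 libraries. For Hoxa9 these were Ubxn4, Gm17018 and Isyna1, at differences of 0.0343, 0.0361 and 0.0454. Pdlim1, Fbxo10 and Traip were closest to Hoxa10, at 0.121, 0.176 and 0.184. For Meis1 the closest were Fut8, Haghl and Lmnb2, at 0.0145, 0.0389 and 0.0462.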

How the data were processed

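The deposited values are raw read counts per gene in 1 table. The submitters' processing notes name STAR 2.7.9a, featureCounts, Subread 2.0.1 and fastp 0.23.1. The sources used here give neither the settings nor the build, the annotation or the handling of multi-mapping reads. Per the labels' protocols, 1 ng of total RNA was pre-amplified with a SMARTer kit and Nextera XT libraries were read as single ends of 100 nt. This chemistry marks neither strand nor molecules, so amplified copies count as separate reads.

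Counts were analysed in edgeR 4.0.16 under R 4.3.3: filterByExpr by group (minimum count 10, minimum total 15), TMM scaling, and the robust quasi-likelihood F test of KO against WT with no covariate. The standard error is the log2 fold change divided by the root of the F statistic, and 95% intervals use its t quantile. Alternatives used other scalings and filters, DESeq2 1.42.0, limma-voom (limma 3.58.1), the replicate number as a block, an erythroid covariate, and each library left out. The code was tested on simulated counts. All pairs of libraries differed beyond sampling noise (chi-square per degree of freedom of 32.8 or more).

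The members, gene lists, markers and alternatives were chosen with earlier results of these data known. Named genes are the members, Slc6a6, the called genes of each list or else its 3 most abundant, and the 3 closest in pattern to Hoxa9, Hoxa10 and Meis1. Some items that fall under these rules are not reported here. Lists are described by counts and medians, with no set test. GENCODE M21 gave transcript lengths and RefSeq (GRCm38.p6) the upstream sequences.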

Additional observations from a re-analysis of the deposited data

How the results depend on the processing

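With all libraries 250 genes were higher and 293 lower in KO. DESeq2's Wald test called 1075 and 920, the erythroid covariate 151 and 109, and fits without 1 library 13 to 371 and 29 to 247. With the replicate block 8 and 20 genes were called and 0 members (Hoxa10 adjusted p = 0.0985 in edgeR). The labels share replicate numbers but do not say that they pair libraries. The deviations of same-numbered libraries from their group means gave r = 0.0632, −0.143 and −0.0665 across genes, which are not independent replicates. KO2 and KO3 correlated best with another number than their own. Because deviations within a group sum to 0, the r values of a library nearly cancel and some are negative with or without pairing. Whether the numbers pair libraries was not tested.

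Of the members, 1 was called higher, and 0 or 1 without 1 library. With the erythroid covariate the 1 called was Meis1 and not Hoxa10. None was called lower, and 0 in all fits without 1 library, but 1, Hoxa9, with upper quartile scaling, with library size alone, with at least 1 CPM in 3 libraries and with DESeq2.

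Hoxa10, Hoxa9, Hoxa7, Hoxa6 and Meis1 kept their direction in all 15 alternatives. Some genes near 0 turned. Pbx3 was −0.0108 with upper quartile scaling, −0.0102 with library size alone and −2.78e-04 with at least 1 CPM in 3 libraries. Bap1 was 0.00155 with RLE scaling, 0.00157 with DESeq2, 4.98e-04 with limma-voom and 3.44e-05 with the replicate block, and Suz12 −0.0738 with the erythroid covariate. Fits without 1 library also turned Pbx3 (−0.0596 to 0.0387), Hoxa5 (−0.0579 to 0.206), Pbx2 (−0.313 to 0.00895), Skap2 (−6.37e-04 to 0.310), Pknox1 (−0.0612 to 0.0629), Bap1 (−0.0746 to 0.0356) and Xpo1 (−0.0127 to 0.0769). The causes were not tested. Counts were low for Hoxa6 (101 to 151 a library) and for the genes near 1 CPM, while the other tested members had at least 536 counts a library. How far depth limits these genes was not tested.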

Other observations

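Within a library, 2 ratios of neighbouring or fused genes need no scaling between libraries. Reads of the fusion cannot be told apart from those of the endogenous Hoxa9 and Nup98, so their ratio describes no single locus. For each Nup98 count there were 0.553 ± 0.0511 Hoxa9 counts in KO (SD, n = 3) and 0.497 ± 0.0603 in WT, and the ranges overlapped (0.501 to 0.603 against 0.428 to 0.538). For each Hoxb6 count there were 3.07 to 4.45 Hoxb5 counts in KO and 0.557 to 0.806 in WT, and the ranges did not overlap. These are raw counts with no correction for transcript length, so they do not tell which of the pair is more abundant. Both ratios were chosen after the values were seen and are given with no test.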
